A study of Homo sapiens with 13 samples.

Results

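The kinases that phosphorylate SR proteins and the spliceosome were followed as 9 genes, CLK1, CLK2, CLK3, CLK4, SRPK1, SRPK2, SRPK3, DYRK1A and PRPF4B, taken by name out of 58581 genes in the count table. SR proteins are splicing factors whose tails of arginine and serine repeats are phosphorylated in steps. SRPK kinases act on these tails largely in the cytoplasm, after which the importin TNPO3 carries the SR protein into the nucleus. There CLK kinases add further phosphates, which release SR proteins from nuclear speckles to the sites of splicing. DYRK1A, a relative of the CLK kinases encoded on chromosome 21, also phosphorylates SR proteins, and PRPF4B phosphorylates tri-snRNP proteins during assembly of the spliceosome. SRSF2, the protein manipulated in this series, is itself an SR protein and a substrate of these enzymes.

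The cells were HEL, a human erythroleukemia line that carries a JAK2 mutation and expresses erythroid and megakaryocyte genes. They carried a stably introduced SRSF2, either with the P95H substitution found in myelodysplastic syndromes or wild type (WT). RNA-seq after rRNA depletion covered 2 P95H and 2 WT libraries after 48 hours with 1 µg/ml doxycycline, and 1 library from P95H cells labelled uninduced. HITS-CLIP, which sequences RNA crosslinked to an immunoprecipitated protein, here recovered through a Flag tag, covered 4 P95H and 4 WT samples after 36 hours at the same dose. The labels say nothing of the endogenous SRSF2 gene, of the promoter of the construct or of whether a line was 1 clone. The numbered libraries are called biological replicates, with nothing said of separate cultures, so p-values measure only the spread between these samples.

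The 5 RNA-seq libraries held 37414093 to 45005605 counts, and 3 counts corresponded to 0.0667 to 0.0802 CPM before TMM factors. RNA levels below are in CPM, counts scaled to library size, with TMM factors. The spans of mean CPM set beside HITS-CLIP windows took no TMM factors. All 11 erythroid, megakaryocyte and HEL marker genes were above 1 CPM in every library, with sums of 1875 to 2422 CPM. Summed lymphoid markers reached at most 6.61 CPM, fibroblast markers 1.88 CPM and monocyte and neutrophil markers 12.0 CPM, while epithelial markers summed to 31.1 to 40.3 CPM, carried by KRT8 and KRT18 with EPCAM and KRT5 at 0. SRSF2 stood at 223 and 252 CPM in P95H and 222 and 241 CPM in WT, against 285 CPM in the library labelled uninduced. Total SRSF2 counts, which do not separate the introduced from the endogenous gene, were therefore not lower in the library labelled uninduced. Mitochondrially encoded genes took 1.38% of counts in both replicate 1 libraries, against 4.30% in P95H replicate 2, 4.50% in WT replicate 2 and 4.14% in the library labelled uninduced. Replicate number thus went with a difference between libraries that genotype did not, and values between same-numbered libraries are given beside each comparison. In bulk RNA, fewer cells of a type and less RNA per cell cannot be told apart.

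All 9 kinase genes were expressed in all 5 libraries and passed the filter on low counts. CPM are not divided by gene length, so levels are compared between libraries and not between genes. The first group to describe is the CLK family, nuclear dual-specificity kinases that phosphorylate serine, threonine and their own tyrosines. CLK1 (ENSG00000013441, chromosome 2, 200853009 to 200864744, minus strand, GRCh38), the family's best studied member, had 63.8 and 46.3 CPM in P95H replicates 1 and 2, 62.2 and 45.0 CPM in WT replicates 1 and 2, and 76.3 CPM in the library labelled uninduced. CLK4 (ENSG00000113240, chromosome 5, 178602664 to 178630615, minus strand), its closest relative, had 20.8 and 16.8 CPM in P95H, 21.2 and 17.2 CPM in WT and 24.6 CPM in the library labelled uninduced. Both genes were lower in replicate 2 than in replicate 1 of either genotype, and the genotypes overlapped.

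CLK2 (ENSG00000176444, chromosome 1, 155262868 to 155278491, minus strand), which also acts in hepatic gluconeogenesis in mice, had 72.1 and 98.5 CPM in P95H, 77.6 and 88.2 CPM in WT and 119 CPM in the library labelled uninduced. Its replicate 2 libraries were the higher ones, the reverse of CLK1 and CLK4. CLK3 (ENSG00000179335, chromosome 15, 74598500 to 74645414, plus strand) had 81.5 and 82.7 CPM in P95H, 90.0 and 86.5 CPM in WT and 106 CPM in the library labelled uninduced. For CLK3 both P95H libraries were below both WT libraries, at -0.14 and -0.07 on the log2 scale between same-numbered libraries. The library labelled uninduced was the highest of the 5 for each of the 4 CLK genes.

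Of the SRPK kinases, SRPK1 (ENSG00000096063, chromosome 6, 35832966 to 35921342, minus strand), the main cytoplasmic SR protein kinase of many cell types, had 309 and 288 CPM in P95H, 314 and 267 CPM in WT and 282 CPM in the library labelled uninduced. SRPK2 (ENSG00000135250, chromosome 7, 105110704 to 105399308, minus strand), which also acts on tri-snRNP proteins, had 49.7 and 49.0 CPM in P95H, 51.2 and 47.5 CPM in WT and 44.5 CPM in the library labelled uninduced. SRPK1 in the library labelled uninduced lay among the other 4 values, and SRPK2 lay below all 4. SRPK3 (ENSG00000184343, chromosome X, 153776412 to 153785732, plus strand), known from mouse muscle, had 8.21 and 12.2 CPM in P95H, 7.52 and 11.5 CPM in WT and 19.4 CPM in the library labelled uninduced. SRPK3 was thus highest in the library labelled uninduced and higher in replicate 2 than in replicate 1 of both genotypes.

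The remaining pair varied little. DYRK1A (ENSG00000157540, chromosome 21, 37365790 to 37517450, plus strand) had 260.3 and 280.3 CPM in P95H, 262 and 294 CPM in WT and 266 CPM in the library labelled uninduced. PRPF4B (ENSG00000112739, chromosome 6, 4021267 to 4064983, plus strand) had 211 and 225 CPM in P95H, 199 and 197 CPM in WT and 219 CPM in the library labelled uninduced. PRPF4B was the 1 kinase gene whose P95H libraries both stood above both WT libraries.

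**Figure D1:**
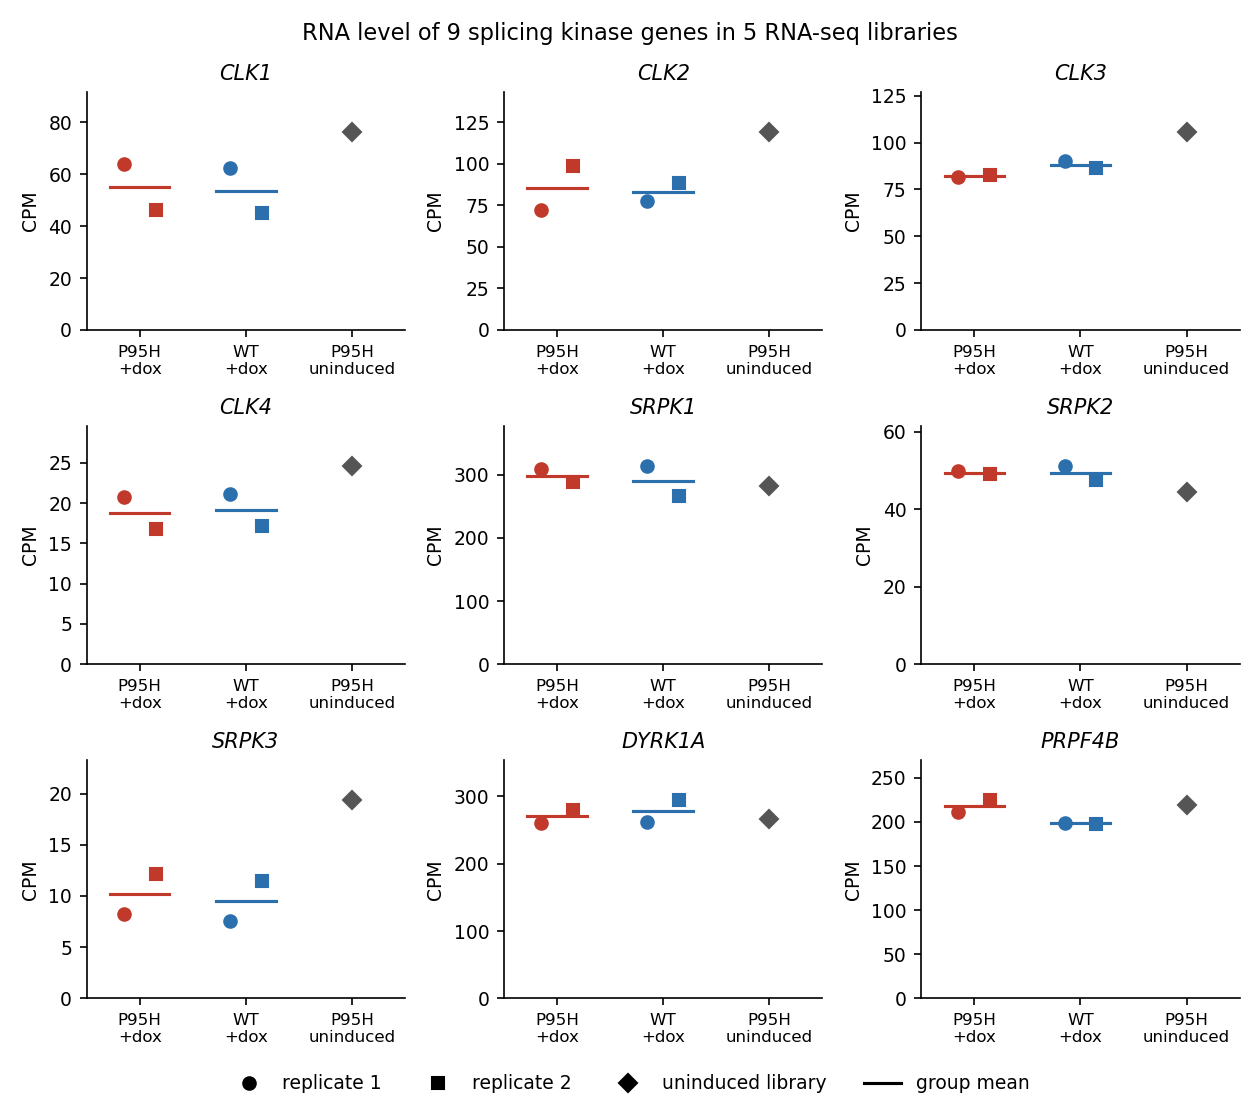
TMM-scaled CPM of each kinase gene on a linear axis that starts at 0, with 1 point per library (circle, replicate 1; square, replicate 2; diamond, the library labelled uninduced) and lines for the means of P95H and of WT. The diamond is the highest point for CLK1, CLK2, CLK3, CLK4 and SRPK3, while SRPK1, DYRK1A and PRPF4B have it among the other points and SRPK2 has it lowest.

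The spread over the 5 libraries separated these genes further. SRPK3 spanned 1.36 on the log2 scale, a range larger than that of 97.8% of the 12861 genes whose log2 CPM averaged 1 or more. CLK1 spanned 0.76 (larger than 86.5% of genes), CLK2 0.73 (84.9%) and CLK4 0.55 (72.7%). CLK3 spanned 0.38, which is also the median gene's range. SRPK1 spanned 0.23, SRPK2 0.20, PRPF4B 0.19 and DYRK1A 0.18, each below the median gene. The library labelled uninduced was an end of the range for 6 of the 9 genes, SRPK2 among them. Over all genes it was above the other 4 libraries in 25.9% and below them in 21.4%.

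The start regions of the 4 genes that moved with replicate number in both genotypes past the test given further on are shown because CLK1 and CLK4 moved together while CLK2 and SRPK3 moved the other way. The sequences are RefSeq's for GRCh38.p14, where all 9 kinase genes were matched, PRPF4B under its other symbol PRP4K. Each runs 5′ to 3′ on the gene's strand over 170 bases before the start site and the first 30 bases from it. The start sites are RefSeq's and lie inside the gene spans of the counts given above. They are 155273504 for CLK2, 178627050 for CLK4, 153781041 for SRPK3 and 200864658 for CLK1. Which start site HEL cells use was not tested. Capitals mark matches on either strand to a CRE half-site (TGACG), a YY1 core (CCATNTT), a palindromic E-box (CACGTG) or a CCAAT box (CCAAT), motifs chosen after the sequences had been seen.
CLK1, chr2:200864629-200864828, minus strand: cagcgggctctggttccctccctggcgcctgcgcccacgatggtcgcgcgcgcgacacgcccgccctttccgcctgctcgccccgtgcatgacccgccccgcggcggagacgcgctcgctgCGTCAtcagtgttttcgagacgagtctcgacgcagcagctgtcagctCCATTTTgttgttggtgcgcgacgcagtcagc
CLK4, chr5:178627021-178627220, minus strand: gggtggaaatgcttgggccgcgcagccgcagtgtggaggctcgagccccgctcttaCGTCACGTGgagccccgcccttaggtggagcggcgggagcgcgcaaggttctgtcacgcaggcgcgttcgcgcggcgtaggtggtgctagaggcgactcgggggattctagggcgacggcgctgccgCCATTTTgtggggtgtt
CLK2, chr1:155273475-155273674, minus strand: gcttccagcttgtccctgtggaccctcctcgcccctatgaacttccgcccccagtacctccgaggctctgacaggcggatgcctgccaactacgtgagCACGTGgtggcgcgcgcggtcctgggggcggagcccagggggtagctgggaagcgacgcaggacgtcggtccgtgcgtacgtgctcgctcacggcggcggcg
SRPK3, chrX:153780871-153781070, plus strand: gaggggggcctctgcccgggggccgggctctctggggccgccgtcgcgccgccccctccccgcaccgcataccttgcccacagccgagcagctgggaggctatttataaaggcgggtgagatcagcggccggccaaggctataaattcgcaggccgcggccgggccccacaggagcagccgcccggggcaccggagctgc
With the start site as position 1, CLK1 held the CRE half-site at -49 and the YY1 core at -2. CLK4 held the CRE half-site at -114, the E-box at -111, which shares letters with it, and the YY1 core at 14. CLK2 held the E-box at -72, and SRPK3 held none of the 4 motifs in this window. Over 250 bases before to 50 bases after a start site, kinase genes not called between replicate numbers held such motifs too. A start site of DYRK1A (37366773) held CRE half-sites at -50 and -42, a YY1 core at 19 and an E-box at -179. Start sites of CLK3 and SRPK2 held a CRE half-site at -44 and at -200. A CRE half-site with a YY1 core was therefore not particular to CLK1 and CLK4. Over 35116 promoter sequences of 250 bases before to 50 bases after a start site, 24.6% held a CRE half-site, 15.6% a YY1 core, 7.26% an E-box and 34.6% a CCAAT box. These matches describe letters and were not tested against the RNA levels.

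Whether the P95H form went with other kinase levels than WT SRSF2 was asked in the 4 libraries given doxycycline. No kinase gene differed between P95H and WT past the threshold. The largest estimate was PRPF4B, at 218 ± 9.89 CPM in P95H and 198 ± 1.30 CPM in WT (SD, n = 2 each), a log2 change of 0.15 (SE 0.10, 95% interval -0.09 to 0.39). Next came SRPK3 at 0.12 (interval -0.57 to 0.80) and CLK3 at -0.09 (interval -0.33 to 0.14). Between same-numbered libraries PRPF4B was higher in P95H by 0.08 and 0.19, and CLK3 was lower, at -0.14 and -0.07 on the log2 scale.

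The 95% intervals, which are not adjusted for the number of genes, ran from -0.46 to 0.56 for CLK1, from -0.35 to 0.46 for CLK2 and from -0.45 to 0.41 for CLK4. They were narrower for SRPK1 (-0.24 to 0.34), SRPK2 (-0.24 to 0.27) and DYRK1A (-0.30 to 0.24). The kinase genes had 6 positive and 3 negative estimates with a median of 0.05, beside 0.00 over all genes. In edgeR's quasi-likelihood test, adjusted by Benjamini-Hochberg over 22007 genes, all 9 had an adjusted p of 0.9999. The same test called 0 genes (0.0%), DESeq2 called 0 as well, and 227 genes had an edgeR p under 0.05 before adjustment. These fits took no account of replicate number, so differences between replicates widen their intervals. With replicate number added to the fit, edgeR called 84 genes and no kinase gene, with an interval of -0.0048 to 0.30 for PRPF4B. Both P95H libraries lay above both WT libraries in 12.8% of genes, as for PRPF4B, and below them in 11.9% of genes, as for CLK3, so the 1 kinase gene of 9 in each direction was close to the background.

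**Figure D2:**
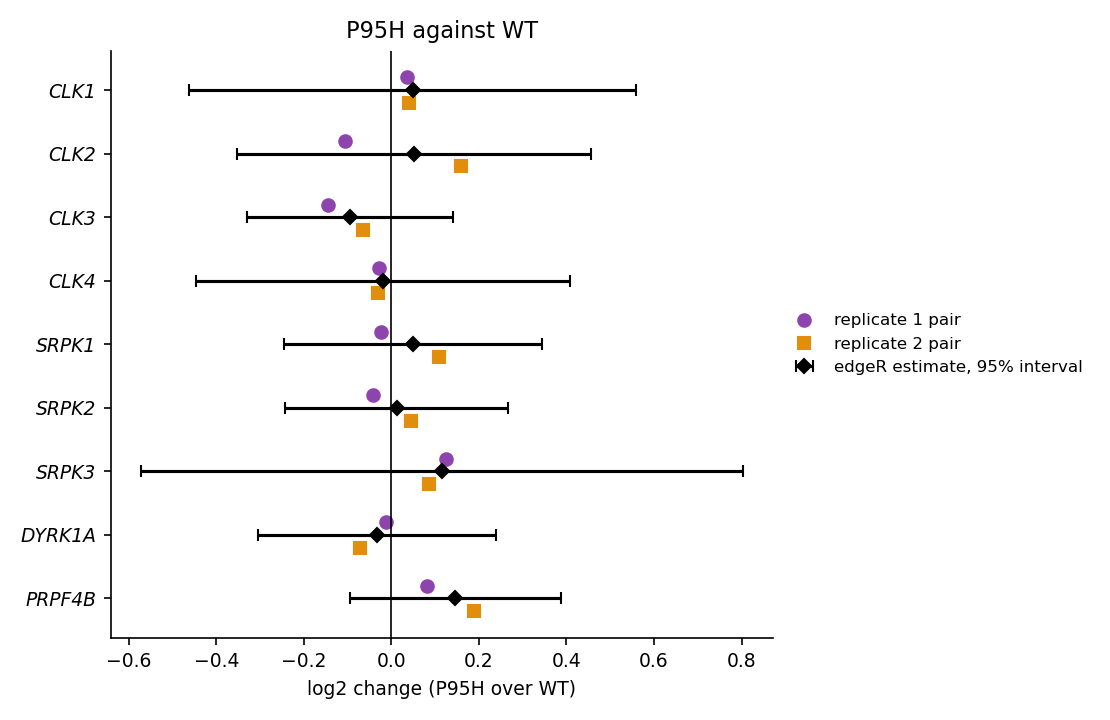
Log2 change of P95H over WT for each kinase gene, with diamonds and bars for edgeR's estimate and its 95% interval, circles for the replicate 1 pair and squares for the replicate 2 pair. All 9 intervals include 0, and the pairs of CLK2, SRPK1 and SRPK2 lie on opposite sides of 0.

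Kinase levels with and without doxycycline were set side by side through the library labelled uninduced. That library is 1 sample, so its label cannot be told apart from the library itself, and both comparisons with it share it. In P95H, CLK1 averaged 55.1 ± 12.4 CPM (SD, n = 2), in WT 53.6 ± 12.2 CPM (SD, n = 2), against 76.3 CPM. The log2 differences in P95H were -0.47 for CLK1 (SE 0.25), -0.48 for CLK2 (SE 0.20), -0.37 for CLK3 (SE 0.12), -0.39 for CLK4 (SE 0.21) and -0.92 for SRPK3 (SE 0.32). In WT they were -0.51 for CLK1, -0.53 for CLK2, -0.26 for CLK3, -0.36 for CLK4 and -1.03 for SRPK3 (SE 0.32). The other 4 kinase genes had values within 0.15 of 0 in both genotypes, from -0.01 for PRPF4B to 0.15 for SRPK2 in P95H and from -0.14 for PRPF4B to 0.15 for SRPK2 in WT.

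On group alone no kinase gene passed the threshold of edgeR's test over 23970 genes. The smallest Benjamini-Hochberg adjusted p among the kinases was 0.972 in P95H and 0.896 in WT by edgeR. That fit called 0 genes (0.0%) in P95H, where 818 had a p under 0.05 before adjustment, and 0 genes (0.0%) in WT, where 1122 did. DESeq2 called 7 genes in each comparison and no kinase gene. By values alone, 5 of the 9 kinase genes (CLK1, CLK2, CLK3, CLK4 and SRPK3) had the library labelled uninduced above all 4 others, as did 25.9% of all genes. SRPK2 had it below all 4, as did 21.4% of all genes. The summed level of CLK1 to CLK4 was 238 and 244 CPM in P95H and 251 and 237 CPM in WT, against 326 CPM in the library labelled uninduced. The sum of SRPK1 to SRPK3 was 367 and 349 CPM in P95H and 373 and 326 CPM in WT, against 345 CPM there.

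**Figure D3:**
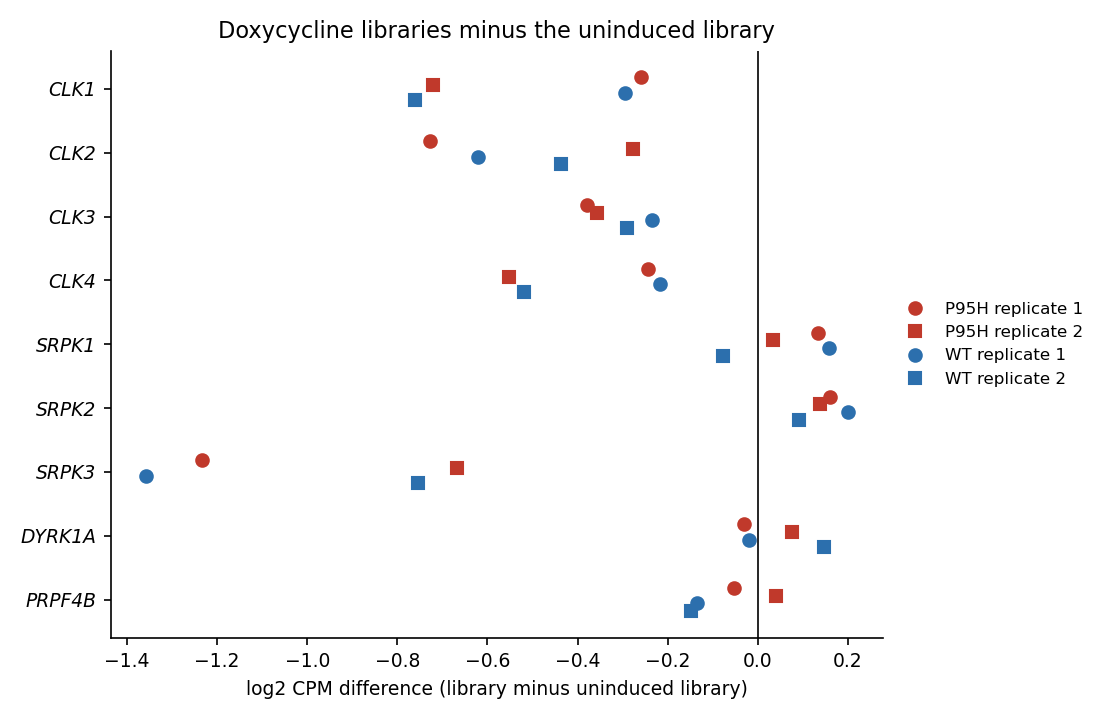
Log2 CPM of each doxycycline library minus that of the library labelled uninduced, with 1 point per library (red, P95H; blue, WT; circles, replicate 1; squares, replicate 2). All points of CLK1, CLK2, CLK3, CLK4 and SRPK3 lie left of 0, from -0.22 for CLK4 in WT replicate 1 to -1.36 for SRPK3 in WT replicate 1.

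With replicate number as a batch term the calls depended on where the library labelled uninduced was placed, which the labels do not give. Placed with the replicate 2 libraries, edgeR called 866 of 23970 genes in P95H (3.61%), of which 215 rose (0.897%) and 651 fell (2.72%). Among them 5 kinase genes fell in P95H, with log2 changes of -0.72 for CLK1 (edgeR adjusted p 2.4e-08), -0.55 for CLK4 (0.00519), -0.66 for SRPK3 (0.00317), -0.38 for CLK3 (0.0149) and -0.34 for CLK2 (0.0334). In WT the same placing called 1413 genes (5.89%) with edgeR, of which 937 fell (3.91%), and CLK1, CLK2, CLK4 and SRPK3 fell, while CLK3 had -0.27 with an adjusted p of 0.104.

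Placed with the replicate 1 libraries, edgeR called 3685 genes in P95H (15.4%) and 3697 in WT (15.4%), and those that fell were 10.4% of all genes in P95H and 9.92% in WT. CLK2 fell, at -0.66 in P95H (edgeR adjusted p 2.41e-08) and at -0.69 in the WT libraries, and so did SRPK3, at -1.25 in P95H and -1.35 in WT. CLK3 fell in P95H, at -0.36 (edgeR adjusted p 0.00723), and had -0.25 in WT (0.082). CLK1 fell in WT, at -0.30 (edgeR adjusted p 0.0465), and had -0.26 in P95H (0.0988). CLK4 passed in neither genotype in this placing. CLK2 and SRPK3 were called lower in all 4 of these fits, as were 285 of the 23970 genes (1.19%), and SRPK1, SRPK2, DYRK1A and PRPF4B were called in none. All 4 fits use the same library labelled uninduced, so they are not independent of each other. Each of the fits has 1 residual degree of freedom among libraries and takes its spread largely from all genes together.

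SRPK3 overlaps the neighbouring gene PLXNB3, a semaphorin receptor gene of the same strand, over 2935 bases. PLXNB3 had 5.09 and 7.32 CPM in P95H, 4.67 and 8.45 CPM in WT and 9.22 CPM in the library labelled uninduced, so it was high in the same libraries as SRPK3. Reads of the shared bases could have been counted for either gene or for none, and how much they add to SRPK3 was not tested. CLK4 shares 271 bases with RN7SKP70, a small RNA gene of the same strand that was under 0.3 CPM in every library. The other overlaps found were on opposite strands, and the labels and headers do not say whether counting used strand. CLK3 shares 14857 bases with EDC3 (51.0 to 59.5 CPM), an mRNA decapping factor gene, and SRPK2 shares 3658 bases with KMT2E (95.03 to 118 CPM). CLK2 shares 909 bases with HCN3 and PRPF4B 15550 bases with FAM217A, both under 3 CPM. The processed pseudogenes CLK2P1, CLK3P2 and SRPK2P had at most 30 counts in any library.

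Within each genotype, replicate 2 was also set against replicate 1, a comparison added after the values had been seen. CLK1 was lower in replicate 2, at -0.46 in P95H and -0.47 in WT on the log2 scale, and so was CLK4, at -0.31 in P95H and -0.30 in WT. CLK2 was higher in replicate 2 by 0.45 in P95H and by 0.18 in WT, and SRPK3 by 0.56 in P95H and by 0.60 in WT. In a fit with both genotype and replicate number, edgeR called 4226 of 22007 genes (19.2%), of which 2275 rose (10.3%) and 1951 fell (8.87%) in replicate 2. Like the batch fits, that fit has 1 residual degree of freedom among libraries and takes its spread largely from all genes together. Of the 9 kinase genes 4 were called. CLK1 fell by 0.47 (SE 0.08, edgeR adjusted p 5.6e-05) and CLK4, at -0.31, fell as well (SE 0.10, 0.0342), while CLK2 rose by 0.32 (SE 0.08, edgeR adjusted p 0.00404) and SRPK3 by 0.59 (SE 0.13, 0.00114).

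The call of CLK4 was lost without the filter on low counts (edgeR adjusted p 0.0604) and in DESeq2 (adjusted p 0.264), with estimates of -0.30 in both. DESeq2 called 1455 genes in this comparison, 944 higher and 511 lower. SRPK1 had -0.17 (edgeR adjusted p 0.108), DYRK1A 0.14 (0.207), SRPK2 -0.07, PRPF4B 0.04 and CLK3 -0.02, none past the threshold. Both replicate 2 libraries lay below both replicate 1 libraries in CLK1, CLK4, SRPK1 and SRPK2, as in 28.8% of genes, and above them in CLK2, SRPK3 and DYRK1A, as in 27.0% of genes. The mitochondrial share moved with the replicate number as given above, and its part in the kinase differences was not tested.

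**Figure D4:**
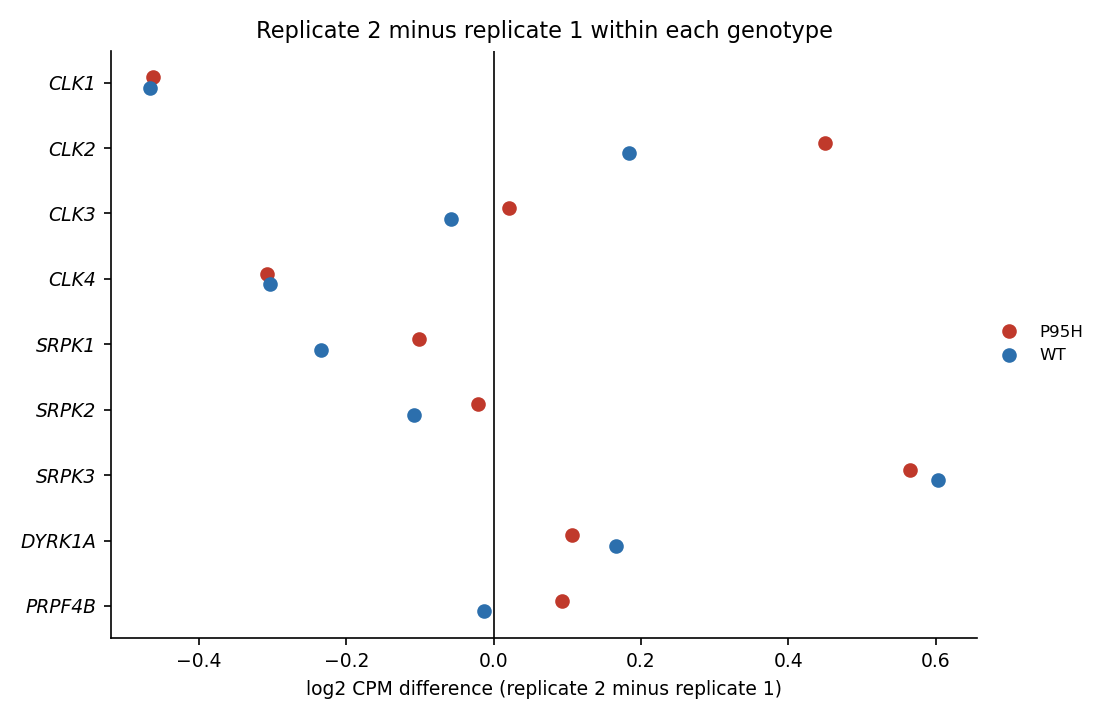
Log2 CPM of replicate 2 minus replicate 1 for each kinase gene within P95H (red) and within WT (blue). CLK1 and CLK4 lie left of 0 and CLK2 and SRPK3 right of 0 in both genotypes, with CLK1 at -0.46 in P95H and -0.47 in WT.

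Ratios between kinase genes were taken within a library and compared across libraries, so that gene length cancels. CLK1 over CLK4 was 3.07 and 2.76 in P95H and 2.94 and 2.62 in WT, against 3.10 in the library labelled uninduced, so its highest value was 1.18 times its lowest. SRPK1 over SRPK2 was similarly even, at 6.22 and 5.88 in P95H and 6.14 and 5.63 in WT, against 6.33. Both of these genes varied little by themselves, so their even ratio does not show that they moved together. CLK2 over CLK1 was the least even of the 6 ratios computed, at 1.13 and 2.13 in P95H and 1.25 and 1.96 in WT, against 1.56. CLK1 over SRPK1 was 0.206 and 0.161 in P95H and 0.198 and 0.169 in WT, against 0.271, and was highest in the library labelled uninduced. CLK1 over PRPF4B was 0.303 and 0.206 in P95H and 0.312 and 0.228 in WT, against 0.349. CLK2 over CLK3 was 0.885 and 1.19 in P95H and 0.862 and 1.02 in WT, against 1.13.

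Likeness of pattern was measured as the root mean square difference of log2 CPM, each gene centred on its own mean over the 5 libraries, among 12860 other genes. Nearest to CLK1 were CCDC61 (0.03), a centrosome gene, MSMO1 (0.04), an enzyme gene of cholesterol synthesis, and ABALON (0.06), a noncoding RNA gene. MSMO1 had 60.2 and 46.1 CPM in P95H and 58.1 and 43.1 CPM in WT, against 70.3 CPM in the library labelled uninduced. CLK4 ranked 18 of these 12860 genes in likeness to CLK1, at 0.09. Nearest to CLK4 were SLC27A1 (0.03), a fatty acid transport gene, RP4-784A16.4 (0.03) and ABHD14A (0.04), each under 5 CPM in all libraries. Nearest to SRPK1 were DDHD2, a lipase gene, RUVBL1, an ATPase gene of chromatin remodelling complexes, and EPM2A, the laforin gene, each at 0.02. Likeness over 5 libraries is a description and carries no test.

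The substrates and partners of the kinases were read from the same fits. Among SR proteins, 0 of 13 tested genes were called between P95H and WT, and the largest estimates were TRA2B at 0.13 and SRSF5 at 0.12 (edgeR adjusted p 0.9999 for both). In replicate 2 against replicate 1, 4 of 13 rose and 0 fell, where 10.3% of all genes rose and 8.87% fell, and the list's median was 0.16 beside -0.01 over all genes. SRSF6, which binds exonic splicing enhancers, had 287 and 279 CPM in replicate 2 of P95H and WT, against 221 and 196 CPM in replicate 1, and rose by 0.44 on the log2 scale (edgeR adjusted p 3e-05). SRSF10 rose by 0.28, TRA2B by 0.25 and SRSF8 by 0.24.

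Against the library labelled uninduced, 0 of 14 SR protein genes were called on group alone in either genotype. With it placed among the replicate 2 libraries, 3 rose and 0 fell in P95H (SRSF10 by 0.36, TRA2B by 0.35, SRSF6 by 0.33), and 2 rose in WT (SRSF10 by 0.29, TRA2A by 0.32). Of all genes 0.897% rose in that P95H fit and 1.99% in that WT fit. Placed among the replicate 1 libraries, TRA2A rose (0.31) and SRSF2 fell (-0.34) in P95H, and in WT TRA2A rose (0.32) while SRSF2 (-0.37) and SRSF5 (-0.37) fell. That is 2 of 14 genes in P95H and 3 of 14 in WT, close to the 15.4% of all genes called in each.

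Among 13 tested kinases related to the CLK and DYRK families or acting on SR proteins, DYRK1B, a close relative of DYRK1A, had 6.29 and 2.57 CPM in P95H and 4.55 and 2.63 CPM in WT, against 8.75 CPM in the library labelled uninduced. It was highest in that library and lower in replicate 2 of both genotypes, as CLK1 was. DYRK1B fell by 1.05 in replicate 2 (edgeR adjusted p 9.66e-05). Against the library labelled uninduced it fell in both genotypes under both placings, with log2 changes of -0.58 to -1.88. Of all genes, 1.19% were called lower in all 4 of those fits, which share that library. DYRK4 fell by 0.41 in replicate 2, and CDK11A, which has the near-identical copy CDK11B and is uncertain for that reason, rose by 0.81. In replicate 2 against replicate 1 the list thus had 1 call higher and 2 lower of 13. Of all genes, 10.3% rose there and 8.87% fell. Between P95H and WT, 0 of the 13 were called.

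Phosphatases that reverse SR protein phosphorylation were listed as 8 genes, with 0 called between P95H and WT. PPP1R10, which encodes the nuclear regulator PNUTS, had 139 and 149 CPM in replicate 2 of P95H and WT, against 104 and 102 CPM in replicate 1. It rose by 0.49 in replicate 2 (edgeR adjusted p 8.78e-06). This was the 1 call among the 8 genes there, where 19.2% of all genes were called and 10.3% rose. Against the library labelled uninduced, 0 of the 8 were called in either genotype with that library placed among the replicate 2 libraries. Placed among the replicate 1 libraries, 2 rose (PPP1CB by 0.35, PPP2CA by 0.33) and PPP1R10 fell (-0.47) in P95H, and 5 rose and 1 fell in WT, where 15.4% of all genes were called in each genotype (4.94% rose in P95H and 5.5% in WT). These calls also rest on the 1 library labelled uninduced. Of 7 partner and import genes, 0 were called between P95H and WT and 0 between replicate numbers. Of all genes, 0.0% and 19.2% were called there. HSP90AA1, a chaperone gene, rose by 0.32 in P95H and by 0.36 in WT against the library labelled uninduced, in the placing with replicate 2 alone. Of all genes, 0.897% rose in that P95H fit and 1.99% in that WT fit. HSP90AB1 rose by 0.27 in WT in the other placing, where 5.5% of all genes rose. Each was the 1 call of the 7 genes in its fit. TNPO3, the SR protein importin, had 158 and 156 CPM in P95H and 156 and 167 CPM in WT, against 143 CPM in the library labelled uninduced. Of 9 tri-snRNP genes, which include the PRPF4B substrates PRPF6 and PRPF31, 0 were called in any of the edgeR fits described above. Those fits called 0.0% to 19.2% of all genes. PRPF6 had 74.4 and 77.8 CPM in P95H and 80.8 and 82.3 CPM in WT, a log2 change of -0.09.

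Binding of tagged SRSF2 to kinase transcripts was read from the authors' deposited table of HITS-CLIP windows, which lists only windows that passed an authors' adjusted p of 0.05 and changed 2-fold or more between P95H and WT. Of the 9 kinase genes, PRPF4B alone had windows there, 3 of 8100 distinct windows, and the other 8 genes had 0. The table therefore does not show whether SRSF2 bound the transcripts of those 8 genes alike in P95H and WT or was not recovered on them. Among 8003 protein-coding genes whose mean CPM lay within the kinases' span, 16.0% had a window. Among 645 protein-coding genes of 200 to 400 mean CPM, where SRPK1, DYRK1A and PRPF4B lie, 42.2% had a window.

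The PRPF4B windows fell into 2 regions with opposite directions. In the authors' deposited table the window on chromosome 6 at 4037557 to 4037577 (plus strand, GRCh38) had a mean of 9.47 CPM (SEM 6.67) in P95H and 19.47 CPM (SEM 7.38) in WT, with a log2 change of -1.03 and an adjusted p of 0.038. The window at 4037559 to 4037579, which overlaps it and is no second observation, had 6.94 CPM (SEM 4.77) in P95H and 14.21 CPM (SEM 6.69) in WT in the authors' deposited table, a log2 change of -1.02 with an adjusted p of 0.0417. Both were assigned there to PRPF4B-003, a transcript of the nonsense-mediated decay class, which is a spliced form expected to be degraded. Of all distinct windows, 3.96% were of that class. In both windows the ranges of mean ± SEM of P95H and of WT overlapped.

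The other region was higher in P95H. In the authors' deposited table the window at 4040833 to 4040853 had 0.87 CPM (SEM 0.44) in P95H and 0.27 CPM (SEM 0.12) in WT, a log2 change of 1.5 with an adjusted p of 0.0182. It was assigned to PRPF4B-011, a protein-coding transcript, and begins 3254 bases after the end of the lower region. Its level was low, as 11.2% of all deposited windows had a lower WT mean and 39.0% a lower P95H mean. For the window at 4037557 these shares were 82.0% and 86.1%. The regions start 16290 and 19566 bases from the start of the gene, which spans 43717 bases. Windows in both directions occurred in 10.7% of the 2384 genes of the table, and 77.7% of its windows were lower in P95H. Genes with 1 window, which cannot hold both directions, are counted in those 2384, and the median gene had 2 windows. At an authors' adjusted p of 0.01 or less, met by 74.3% of windows, or at a change of 4-fold or more, met by 49.0%, 0 kinase windows were left. The exon or intron at each window is not annotated in the table beyond its transcript.

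**Figure D5:**
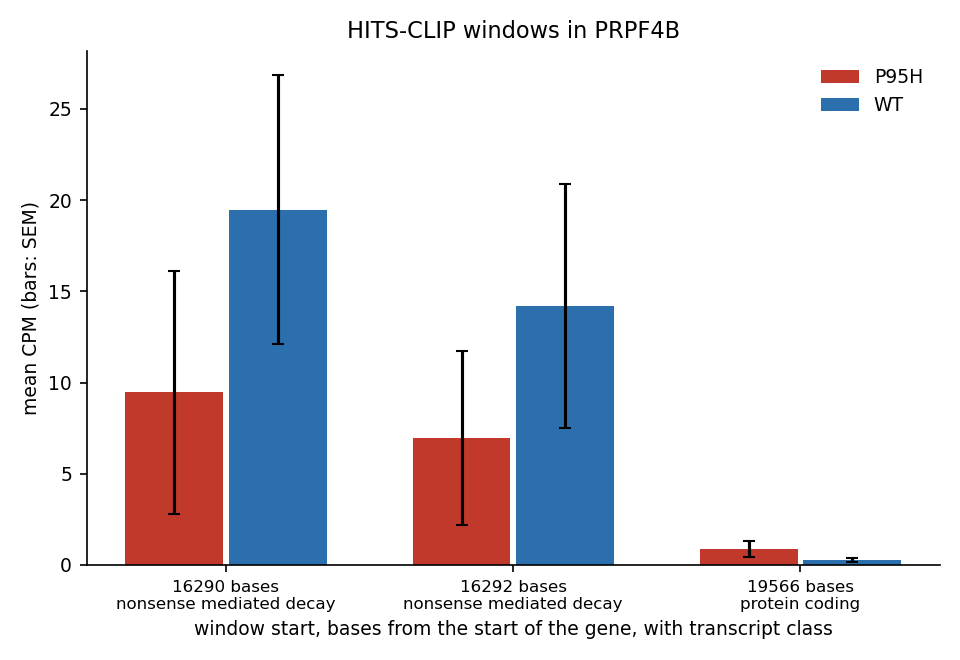
Mean CPM of the 3 PRPF4B windows in the authors' deposited table, P95H left of WT, with bars for the authors' SEM of 4 samples each and window starts given as bases from the start of the gene. The overlapping pair at 16290 and 16292 bases is lower in P95H, at 9.47 and 6.94 CPM, and the window at 19566 bases is higher in P95H, at 0.87 CPM.

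Substrate and partner genes of the kinases were read from the same windows. Per the authors' deposited table, windows lay in 9 of 14 SR protein genes, 18 in all, of which 5 were higher and 13 lower in P95H, near the 77.7% of all windows that were lower. Of protein-coding genes within the list's span of mean CPM (0.221 to 497), 12.3% had a window, but that wide span takes in many genes of low level, and the shares are not matched on level. SRSF10 had 5 of them, 2 higher and 3 lower, and SRSF2 itself had 1, with a log2 change of -1.51. Of 14 related kinases 6 had 32 windows, of which CDK11B and CDK11A, whose reads are hard to assign, held 12 and 11. CDK12, a kinase of the RNA polymerase II tail, had 4 higher and 1 lower. Of 9 tri-snRNP genes 5 had 45 windows, 44 of them lower in P95H, with 21 in DDX23, a helicase gene, 11 in PRPF6 and 9 in PRPF31. Within that list's span of mean CPM (51.2 to 807), 26.2% of protein-coding genes had a window. The partner list had 138 windows in 5 of 7 genes, 69 of them in HSP90AA1 and 49 in HSP90AB1, and the phosphatase list had 2, both in PPP1CB and both lower in P95H. Within the spans of mean CPM of the related kinases, the partners and the phosphatases, 10.0%, 39.8% and 24.9% of protein-coding genes had a window, and windows of 1 gene are not independent observations.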

How the data were processed

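RNA-seq and HITS-CLIP were made in HEL cells as described above, and groups and replicate numbers come from the labels. The authors deposited unnormalized RNA-seq counts, 1 per Ensembl gene and library. GRCh38.p3, TopHat2 2.0.14, STAR 2.5.3a and edgeR appear in the submitters' processing notes without roles. For the counting program, its use of strand and the annotation release, nothing is stated. Per the file headers, the HITS-CLIP table holds the log2 change of P95H over WT, an adjusted p-value (FDR), and mean CPM with its SEM per genotype, all computed and deposited by the authors. Its 8324 entries held 224 repeated positions, counted once, and each window's end and start differ by 20 or 21 bases as written there. The total behind its CPM is not stated, so its depth is unknown.

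The analysis of counts used edgeR 4.0.16 and, as an alternative, DESeq2 1.42.0 in R 4.3.3. Low counts were removed by filterByExpr, libraries scaled by TMM (factors 0.958 to 1.04) and groups compared by edgeR's two-sided quasi-likelihood test over all genes, with Benjamini-Hochberg adjusted p under 0.05 as threshold. Intervals are 95% and use the test's degrees of freedom. The fit of P95H against WT took 4 libraries, and fits with the library labelled uninduced took 5. Batch fits added the replicate number. Log2 CPM per library were computed by edgeR with a prior count of 2. Likeness and range were taken over genes whose log2 CPM averaged 1 or more. Of 92 listed symbols, 92 matched. Promoters and windows were handled in Python 3.11.15 with pandas 2.3.3, and figures drawn with matplotlib 3.10.9. The analysis of counts was tested on simulated data, except for the batch fits that place the library labelled uninduced. Apart from changes planted for the comparison of replicate numbers, those data held only random spread between replicates.

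The kinase genes, the other lists and the tests were chosen with earlier results of these data known. All 9 kinase genes were named. Of each other list, up to 4 members past the threshold by smallest adjusted p were named, or 2 by largest change where none passed, and the text gives a selection. TNPO3, PRPF6 and the list genes named for their windows were chosen after their values were seen. Alternatives were other scalings, no filter, DESeq2, a replicate block, batch terms, leaving out each replicate and stricter window thresholds. The comparison of replicate numbers was added after the data were seen.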

Additional observations from a re-analysis of the deposited data

Results flagged for a closer look

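CLK2 differed between P95H and WT by -0.11 on the log2 scale in the replicate 1 libraries and by 0.16 in the replicate 2 libraries. SRPK1 differed by -0.023 in the replicate 1 libraries and by 0.11 in the replicate 2 libraries, and SRPK2 by -0.041 in the replicate 1 libraries and by 0.046 in the replicate 2 libraries. For these 3 genes the directions were opposite, and the difference between the replicate pairs was not tested.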

How the results depend on the processing

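In P95H against WT, with 0 genes called, 15 were called without the filter on low counts and 84 with the replicate block, neither with a kinase gene. With the replicate block the 95% intervals were narrower, at -0.12 to 0.21 for CLK1, -0.12 to 0.20 for CLK2, -0.23 to 0.19 for CLK4 and -0.0048 to 0.30 for PRPF4B. The WT and P95H differences between replicate numbers correlated at r = 0.716 across 12861 genes, but with 2 pairs the numbers do not by themselves pair the libraries. CLK4 turned to 0.0074 under upper quartile scaling. Without 1 library each, the kinase estimates ranged from -0.21 to 0.30 for CLK1, -0.20 to 0.25 for CLK2 and -0.19 to 0.14 for CLK4. They ranged from -0.072 to 0.17 for SRPK1, -0.051 to 0.065 for SRPK2, -0.21 to 0.44 for SRPK3 and -0.11 to 0.044 for DYRK1A. These directions rest on single libraries. CLK3 (-0.13 to -0.07) and PRPF4B (0.09 to 0.19) kept theirs, which was all but fixed in advance. Both P95H libraries lay on the same side of both WT libraries for these genes, so leaving out 1 library could hardly turn the sign.

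Against the library labelled uninduced, with 0 genes called, counts were 92 in P95H and 128 in WT without the filter, where 1 kinase gene (SRPK3, -1.02, edgeR adjusted p 0.0214) passed in WT, and 7 in each with DESeq2. Batch terms called 866 (5 kinase genes) or 3685 (3) in P95H and 1413 (4) or 3697 (3) in WT, for placing with replicate 2 or replicate 1. Leaving out 1 library gave 0 to 2 calls in WT, the 2 without WT replicate 1, and 0 in P95H. PRPF4B in P95H turned to 0.017 with DESeq2 size factors and in DESeq2, 0.061 with upper quartile scaling and 0.014 with the batch term of replicate 2, and ranged from -0.055 to 0.059 without 1 library. DYRK1A turned to -0.045 in P95H and -0.0039 in WT with the batch term of replicate 1, and ranged from -0.032 to 0.095 in P95H and -0.011 to 0.15 in WT without 1 library. SRPK1 in WT turned to -0.043 with the batch term of replicate 2 and ranged from -0.076 to 0.17 without 1 library. CLK1, CLK2, CLK3, CLK4, SRPK2 and SRPK3 kept their directions under every alternative run. CLK1 ranged from -0.72 to -0.26 in P95H and -0.76 to -0.30 in WT over the settings other than leaving out a library. For these genes the library labelled uninduced lay above or below all 4 others, and every alternative used that library. That they kept their directions was therefore largely fixed in advance.

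In replicate 2 against replicate 1, DESeq2 called 1455 genes against 4226, CLK4 lost its call as given above (-0.30 in both), and PRPF4B turned to -0.0035 under upper quartile scaling. Leaving out a library there leaves no residual degrees of freedom and was not run. HITS-CLIP windows and regions of the kinases fell to 0 under either stricter threshold, and stayed at 2 regions when windows within 50 bases were merged. Assigning windows by gene ID was not run because the table gives transcript IDs only. The causes were not tested. Counting depth limits SRPK3 most (324 to 726 counts), and the 1 library labelled uninduced limits every comparison with it.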
